A study of Mus musculus with 16 samples.

Results

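The genes described are 8 components and outputs of the circadian clock: Per1, Per2, Bhlhe40, Nr1d1, Nr1d2, Dbp, Tef and Noct. Every probe set of the deposited table whose only annotated symbol was one of these names was taken, whatever its signal, which gave 8 of 7729 probe sets and 7 of the 8 genes. Dbp had 2 probe sets and the other 6 genes had 1 each, and Per2 was not analysed here. Expression had been measured on 16 Affymetrix arrays, on which a probe set is a group of short probes for a transcript. The arrays held gastrocnemius, a calf muscle, and triceps, a forelimb muscle, from females of the C57BL/6 strain. All were 7 weeks old, which the series calls presymptomatic. 4 mice were transgenic for human SOD1 (superoxide dismutase 1) with the G93A substitution, written SOD1G93A, a mouse model of amyotrophic lateral sclerosis. The other 4 were non-transgenic mice (NTg). Both muscles of each mouse gave 4 groups of 4 arrays: SOD1G93A gastrocnemius, NTg gastrocnemius, SOD1G93A triceps and NTg triceps. The labels name no promoter for the transgene. They give 12 hours of light a day and no hour of death, and no source used here says whether all mice were taken at the same hour. Muscles were frozen in liquid nitrogen when removed.

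The circadian clock is a transcriptional feedback loop that runs in nearly every cell, skeletal muscle fibres included. The activators CLOCK and BMAL1 (gene Arntl) bind E-box motifs and switch on the Per and Cry genes, whose proteins then restrain them. In a second loop the nuclear receptors REV-ERB alpha and beta (Nr1d1, Nr1d2) repress Arntl. Output genes such as Dbp and Tef carry the rhythm on to other genes through D-box motifs. Because transcripts of the clock swing over the day, their level in a tissue depends on the hour at which it is taken. Some members also respond to other signals: Per1 is induced by glucocorticoids and by neural activity, and Bhlhe40 by low oxygen.

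All 8 probe sets had a mean over the 16 arrays above the 40th percentile of the table (log2 signal 6.75) and were among the 4637 probe sets tested. Noct and Per1 passed through the samples numbered 1 and 2: Noct averaged 7.82 in these and 6.40 in those numbered 3 and 4, and Per1 7.43 and 6.14, so in the samples numbered 3 and 4 both lay below the filter. Array medians lay between 7.10 and 7.26. This filter was passed by 10 of 10 fast fibre marker probe sets and by 12 of 13 for slow fibres. The signal of Ckm, the muscle creatine kinase gene, set 3 triceps arrays apart. Ckm was at 12.76 in SOD1G93A triceps 2 and at 12.84 and 13.02 in NTg triceps 1 and 2, against 13.84 to 14.51 on the other triceps arrays and 13.96 to 14.71 in gastrocnemius. These 3 arrays were picked by their values, and the main genotype, muscle and sample number values that change without them are given both ways. All 3 are numbered 1 or 2. Without them NTg triceps holds only samples numbered 3 and 4, and SOD1G93A triceps 1 is the only triceps array numbered 1 or 2. Genotype values that include triceps, and muscle values, are then unbalanced by sample number. In homogenised muscle, fewer cells of a type and less RNA per cell cannot be told apart.

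The members split into genes whose signal went with the sample number and genes whose signal did not. The titles number the samples of each group from 1 to 4, and what separates the numbers is not given in the labels. Noct and Per1 were higher in the samples numbered 1 and 2 than in those numbered 3 and 4, and Nr1d1 and Bhlhe40 were lower, in both muscles and both genotypes. Dbp and Tef did not pass the test. limma called 4 of the 8 member probe sets between the numbers (Benjamini-Hochberg adjusted p under 0.05 over all probe sets tested), where it called 8.99% of all 4637. Of the members 2 were called higher, beside 4.25% of all probe sets, and 2 lower, beside 4.74%. The 2 called higher, Noct and Per1, passed the filter only through the samples in which they were high, so their calls are not independent of it.

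**Figure D1:**
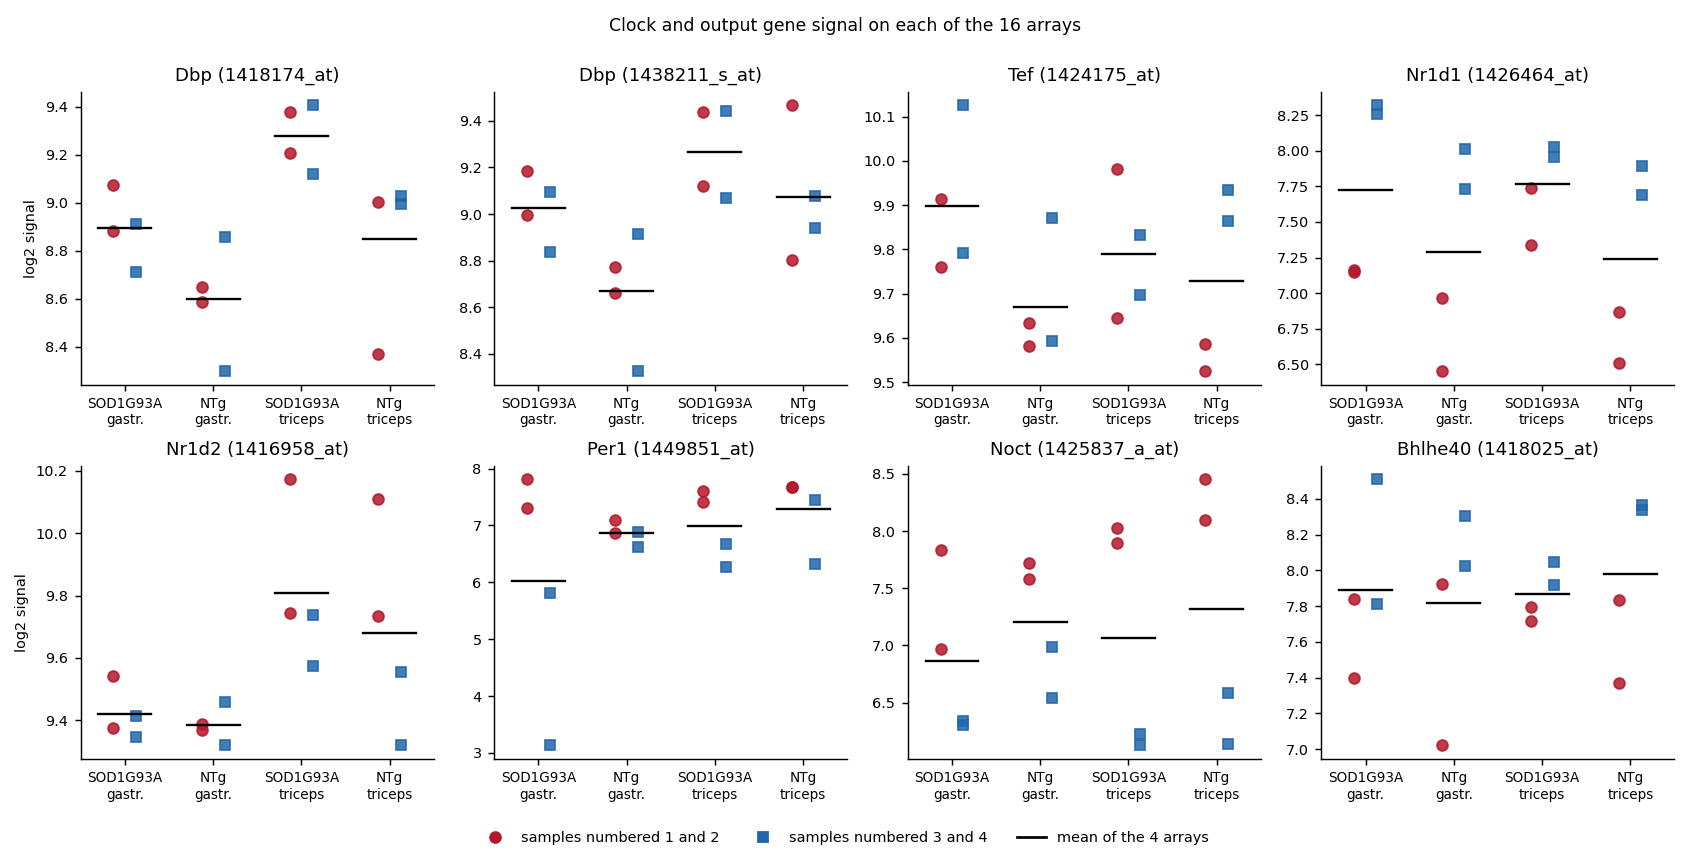
log2 signal (y axes) of the 8 probe sets on each array, by group (x axes); circles are samples numbered 1 and 2, squares are samples numbered 3 and 4, and the line is the mean of the 4 arrays. Noct circles lie above its squares within every group and Nr1d1 circles below its squares, while the symbols of Dbp and Tef mix in most groups.

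The promoters of the 3 genes with the largest differences between the numbers are shown because these genes moved together or in opposite directions. The sequences are from RefSeq (GRCm38.p6) and run 5′ to 3′ from 250 bases before the start of the transcript to 50 after it. Capitals mark the motifs found.
Nr1d1 (chr11:98775328-98775627, minus strand): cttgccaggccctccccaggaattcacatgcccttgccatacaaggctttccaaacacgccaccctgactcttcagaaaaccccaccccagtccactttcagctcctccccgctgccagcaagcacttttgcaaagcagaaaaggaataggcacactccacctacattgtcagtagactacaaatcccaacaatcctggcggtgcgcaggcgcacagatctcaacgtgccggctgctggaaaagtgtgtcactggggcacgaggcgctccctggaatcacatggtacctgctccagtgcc
Noct (chr3:51224197-51224496, plus strand): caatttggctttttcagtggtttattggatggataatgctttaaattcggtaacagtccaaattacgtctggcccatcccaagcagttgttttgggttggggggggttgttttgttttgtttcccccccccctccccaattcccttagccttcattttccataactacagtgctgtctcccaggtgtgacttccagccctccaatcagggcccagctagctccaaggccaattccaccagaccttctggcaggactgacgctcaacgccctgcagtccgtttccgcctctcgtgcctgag
Per1, upstream start (chr11:69098699-69098998, plus strand): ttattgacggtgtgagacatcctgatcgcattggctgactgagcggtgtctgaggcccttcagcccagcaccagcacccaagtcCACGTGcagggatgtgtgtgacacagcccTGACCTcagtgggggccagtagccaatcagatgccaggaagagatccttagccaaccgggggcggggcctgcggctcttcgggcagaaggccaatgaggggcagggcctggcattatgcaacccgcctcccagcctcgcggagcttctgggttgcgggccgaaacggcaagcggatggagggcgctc
Per1, downstream start (chr11:69099902-69100201, plus strand): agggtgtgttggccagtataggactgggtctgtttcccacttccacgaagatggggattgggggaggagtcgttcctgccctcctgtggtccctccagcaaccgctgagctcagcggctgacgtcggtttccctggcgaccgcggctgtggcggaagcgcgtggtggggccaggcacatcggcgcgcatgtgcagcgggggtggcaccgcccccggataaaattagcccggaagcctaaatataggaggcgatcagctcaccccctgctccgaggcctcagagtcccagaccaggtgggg

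4 motifs were searched on both strands without a mismatch: the E-box CACGTG, bound by CLOCK and BMAL1, the D-box TTATGTAA, bound by DBP and TEF, the half-site AGGTCA of ROR and REV-ERB receptors, and the cAMP response element TGACGTCA. None of these overlapped another in the windows shown. The upstream start of Per1 held an E-box at position -166 and an AGGTCA, on the opposite strand, at -137, both counted to the first base from the transcript start. The downstream start of Per1, Nr1d1 and Noct held none of the 4. Among the other members in the promoter table, both starts of Tef held an E-box (at -127 and -138), Nr1d2 held an AGGTCA at -77, and Dbp held none. Of all 32851 promoter windows of this length, 7.15% held the E-box, 0.94% the D-box, 16.26% the AGGTCA half-site and 1.79% the cAMP response element. A match describes the letters in the window and is not evidence of a bound site.

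Per1 encodes a repressor of CLOCK and BMAL1 and is among the first clock genes to respond to outside signals. Among samples 1 and 2 its signal was 7.32 and 7.81 in SOD1G93A gastrocnemius, 7.10 and 6.87 in NTg gastrocnemius, 7.61 and 7.41 in SOD1G93A triceps, and 7.67 and 7.68 in NTg triceps. In the samples numbered 3 and 4 it was 5.81 and 3.13 in SOD1G93A gastrocnemius, 6.62 and 6.88 in NTg gastrocnemius, 6.67 and 6.27 in SOD1G93A triceps, and 7.46 and 6.32 in NTg triceps. The numbers overlapped in NTg gastrocnemius. The difference, samples 1 and 2 minus samples 3 and 4, was 1.29 (SE 0.38), a 2.44-fold higher signal, at an adjusted p of 0.0428 in limma. It was 0.88 (adjusted p 0.0155) without SOD1G93A gastrocnemius 4, the array at 3.13. This call was close to the threshold: it ended when any of 10 other single arrays was left out (adjusted p up to 0.0856), after quantile normalization (0.0653), without the intensity trend (0.0532) and without the 3 arrays of low Ckm (0.123, difference 1.49).

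Bhlhe40, which encodes a repressor that competes at E-boxes (also called DEC1), moved the other way. Its signal in the samples numbered 1 and 2 was 7.40 and 7.84 in SOD1G93A gastrocnemius, 7.02 and 7.92 in NTg gastrocnemius, 7.79 and 7.72 in SOD1G93A triceps, and 7.37 and 7.84 in NTg triceps. In those numbered 3 and 4 it was 7.81 and 8.51, 8.03 and 8.30, 8.05 and 7.92, and 8.34 and 8.36, in the same order of groups. Its numbers overlapped in SOD1G93A gastrocnemius. The difference was -0.55 (SE 0.15), 1.47-fold lower, with limma's adjusted p at 0.0267. The call ended without any of 6 single arrays (adjusted p up to 0.0573) and without the 3 arrays of low Ckm (0.163, difference -0.51).

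Nr1d1, which encodes REV-ERB alpha, had the smallest p of the members called lower. Samples numbered 1 and 2 had 7.15 and 7.16 in SOD1G93A gastrocnemius, 6.45 and 6.96 in NTg gastrocnemius, 7.34 and 7.74 in SOD1G93A triceps, and 6.86 and 6.51 in NTg triceps. Samples numbered 3 and 4 had 8.32 and 8.26, 7.73 and 8.01, 8.02 and 7.95, and 7.69 and 7.89, in the same order. No overlap occurred within any of the 4 groups, which was so, in this direction, for 2.65% of all tested probe sets. Its difference of -0.96 (SE 0.13) was 1.95-fold lower, and limma's adjusted p was 0.00065. Within single groups it was -1.13 in SOD1G93A gastrocnemius, -1.17 in NTg gastrocnemius, -0.45 in SOD1G93A triceps and -1.10 in NTg triceps. Nr1d1 overlaps the thyroid hormone receptor gene Thra on the other strand, and probe sequences were not used here to tell them apart.

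Nr1d2, which encodes the related receptor REV-ERB beta, did not follow Nr1d1. In triceps the samples numbered 1 and 2 had 9.74 and 10.17 in SOD1G93A and 10.11 and 9.73 in NTg, against 9.57 and 9.74 in SOD1G93A and 9.56 and 9.32 in NTg for those numbered 3 and 4. In gastrocnemius all 8 arrays lay between 9.32 and 9.54. The difference over the 4 groups was 0.21 (95% interval 0.01 to 0.42) and did not pass (limma's adjusted p = 0.162). It was 0.04 without the 3 arrays of low Ckm, of which 2 held the highest signals of this probe set.

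Noct encodes nocturnin, a rhythmically expressed enzyme that removes a phosphate from NADP and its reduced form and acts in lipid handling. Samples numbered 1 and 2 had 7.83 and 6.97 in SOD1G93A gastrocnemius, 7.72 and 7.58 in NTg gastrocnemius, 8.03 and 7.90 in SOD1G93A triceps, and 8.45 and 8.10 in NTg triceps. Those numbered 3 and 4 had 6.31 and 6.34, 6.98 and 6.54, 6.12 and 6.22, and 6.59 and 6.13, in the same order. The numbers did not overlap within any group, as was so in this direction for 1.96% of all tested probe sets. With a difference of 1.42 (SE 0.17), a 2.67-fold higher signal, and an adjusted p of 0.000269, Noct ranked 4 of 4637 by p in limma. Because Noct passed the filter only through the samples numbered 1 and 2, this rank and that share are not independent of the filter. Within single groups the difference was 1.79 in SOD1G93A triceps, 1.91 in NTg triceps, 1.08 in SOD1G93A gastrocnemius and 0.89 in NTg gastrocnemius. The test between the muscles gave -0.87 (SE 0.26) and did not pass (limma's adjusted p 0.1), where 0.151% of all probe sets were called. The triceps values include the 3 arrays of low Ckm, SOD1G93A triceps 2 and NTg triceps 1 and 2.

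Dbp and Tef, the 2 transcription factors of the D-box family among the members, showed no difference between the numbers that passed. For Dbp it was -0.02 (95% interval -0.26 to 0.22) with probe set 1418174_at and 0.09 (-0.15 to 0.33) with 1438211_s_at, and for Tef -0.14 (-0.31 to 0.04). limma's adjusted p was 0.918, 0.629 and 0.32.

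**Figure D2:**
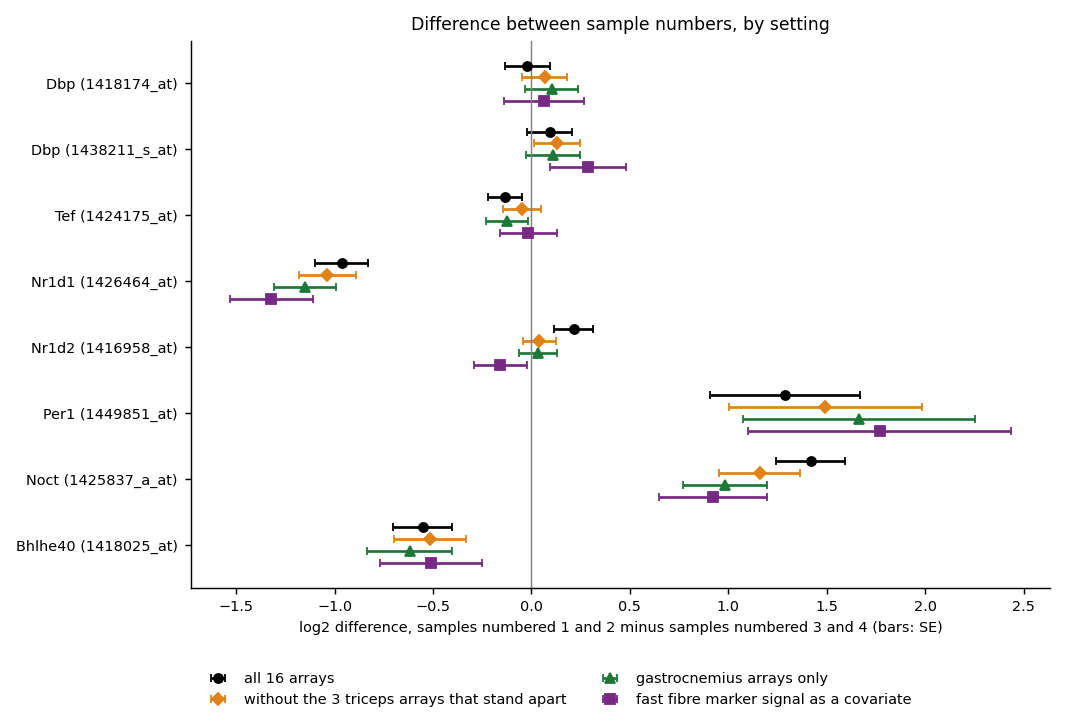
log2 difference of the samples numbered 1 and 2 minus those numbered 3 and 4 (x axis) for each probe set (rows), with its SE, under 4 settings. Nr1d1 lies between -0.96 and -1.32 and Noct between 0.92 and 1.42 under all 4, while Nr1d2 lies between -0.16 and 0.21.

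The difference between the numbers was not particular to clock genes, and markers of fibres moved with it. Over all tested probe sets limma called 4.25% higher and 4.74% lower in the samples numbered 1 and 2, with a median of 0.01. Of the 10 tested fast fibre marker probe sets 10 were called lower, with a median of -0.74. The log2 of their summed signal, in which the brightest probe sets weigh most, was 16.04 to 16.95 in triceps 1 and 2 against 17.33 to 17.57 in triceps 3 and 4. In gastrocnemius it was 17.12 to 17.34 against 17.43 to 17.71. Of 12 slow fibre probe sets 0 were called (median -0.54). Of the markers of other cells, 2 of 5 adipocyte probe sets, both of Car3, which fibres also express, and 1 of 3 immune probe sets (Csf1r) were called lower. The adipocyte median was 0.20, with 3 of 5 above 0, and the immune median was -0.29. Of 13 tendon and fibroblast probe sets 4, all of Fmod, were called higher, with a median of 0.04 and 7 of 13 above 0. Another probe set of Fmod was at 0.09 (limma's adjusted p 0.689) and another of Csf1r at -0.11 (0.715). No probe set of Schwann cell (4), smooth muscle (3) or endothelial (1) markers was called.

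Nr1d1 and Noct kept their difference where the arrays of low Ckm did not enter. Without those 3 arrays Nr1d1 was at -1.04 (adjusted p 0.000574) and Noct at 1.16 (0.00343), and with the gastrocnemius arrays alone they were at -1.15 (0.00382) and 0.98 (0.0373), by limma. In gastrocnemius alone Per1 was at 1.67 (0.21) and Bhlhe40 at -0.62 (0.204). With the mean fast fibre marker signal of each array as a covariate, Nr1d1 was at -1.32 (0.0216), while Noct (0.92, 0.207), Per1 (1.77, 0.397) and Bhlhe40 (-0.51, 0.642) no longer passed. That fit called 26 probe sets in all. Its covariate itself differed between the numbers, with 10 of 10 fast fibre probe sets called lower in samples 1 and 2. It was chosen after seeing the data, and the fit cannot separate fibre signal from sample number. The part of fibre content in the members' values was not tested.

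Genes that respond to the same outside signals as Per1 also differed between the numbers. Of 24 tested probe sets of glucocorticoid target genes limma called 8 higher and 1 lower (Cited2) in the samples numbered 1 and 2. Their median was 0.36, beside 0.01 over all tested probe sets, of which 4.25% were called higher and 4.74% lower. The smallest p belonged to Tsc22d3 (1.08, adjusted p 1.45e-05), which encodes a glucocorticoid-induced leucine zipper protein, and Mt2 (1.46, 0.00065), a metallothionein gene. The other probe sets of Tsc22d3 were at 0.76 (adjusted p 0.0378) and -0.41 (0.286). Of 10 tested probe sets of immediate early genes 6 were called higher and 0 lower, with a median of 0.76, among them Fos (1.79, 0.00149) and Jun (1.20, 0.00656). The part of these signals in the values of Per1 and Noct was not tested.

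**Figure D3:**
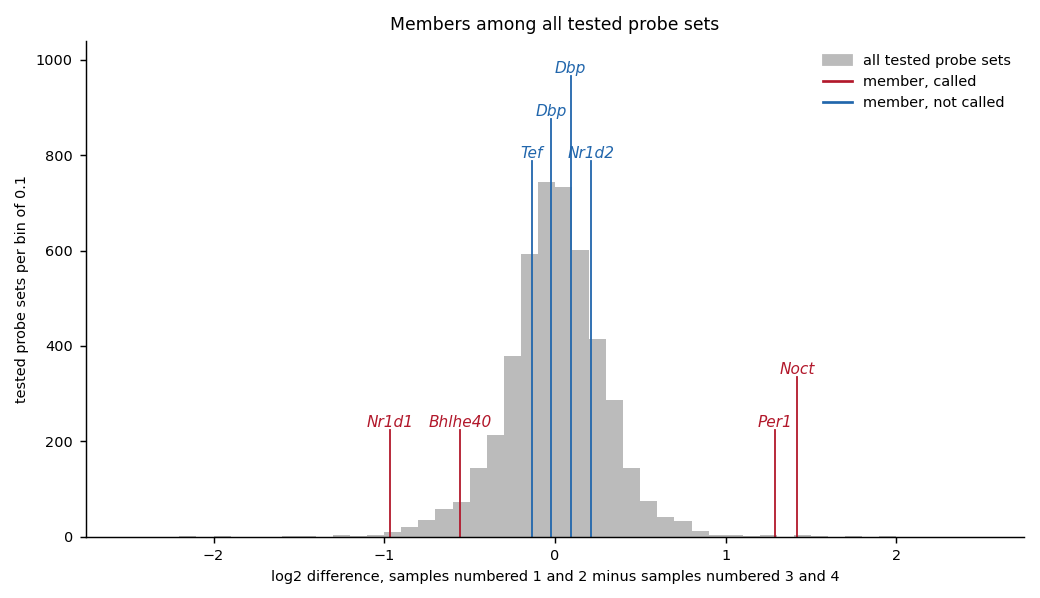
Number of tested probe sets (y axis) per bin of the log2 difference of samples 1 and 2 minus samples 3 and 4 (x axis), with the members as labelled lines, those called by limma in red. Nr1d1, Per1 and Noct lie beyond -0.9 or 0.9, where 0.95% of all tested probe sets lie, while both Dbp probe sets, Tef and Nr1d2 lie within the bulk. Per1 and Noct passed the filter only through the samples numbered 1 and 2.

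Other genes of the clock were looked at through a list of 33 further core and output genes. Of these 13 were in the table with 24 probe sets, and 15 probe sets of 11 genes were bright enough to test. Between the numbers limma called 1 higher and 2 lower in the samples numbered 1 and 2, and the median was 0.06. That is 3 of 15, where 8.99% of all probe sets were called, 4.25% higher and 4.74% lower. Usp2, a rhythmic ubiquitin protease, was higher by one of its probe sets (0.47, SE 0.12, adjusted p 0.0208) and not by the other (0.17, adjusted p 0.574). The kinases that phosphorylate PER proteins were lower: Csnk1d by one probe set (-0.82, SE 0.17, adjusted p 0.00688) and Csnk1e (-0.44, SE 0.13, adjusted p 0.0448). Another probe set of Csnk1d was at 0.27 (adjusted p 0.321). Per3, the third Period gene, was at -0.25 (SE 0.20, adjusted p 0.45), opposite in sign to Per1.

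Of the genes whose transcripts peak opposite to those of the Per and Nr1d genes, only Clock was in the table, and Arntl, Npas2, Nfil3 and Cry1 were not analysed here. Clock lay below the filter, so it was not tested. Its signal was 4.94 to 6.50 (mean 5.62) in the samples numbered 1 and 2. In those numbered 3 and 4 it was 4.12 to 5.69 (mean 4.82), so the ranges overlap while the means differ.

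The series asked what the transgene changes before symptoms. No member passed the genotype test in either muscle or over both, where limma called 0% of all probe sets. In gastrocnemius 1 of the 8 member probe sets had an unadjusted p under 0.05, against 2.22% of all, and in triceps 1 against 2.54%. Over both muscles 2 of the 8 did, both of Dbp, against 1.83% of all. The median difference of the 8 was 0.15 in gastrocnemius and 0.09 in triceps, beside -0.01 and 0.02 over all tested probe sets. The 10 fast fibre marker probe sets all lay above 0 in both muscles (median 0.20 in each). The 5 adipocyte probe sets likewise all lay above 0 (median 0.26 in gastrocnemius and 0.25 in triceps). Of 12 slow fibre probe sets 0 lay above 0 in gastrocnemius (median -0.19) and 10 in triceps (median 0.69). Medians of Schwann cell probe sets were -0.31 and 0.32, and of tendon and fibroblast probe sets -0.09 and 0.29. 0 of these markers were called, and their part in the members' values was not tested.

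Dbp had the smallest p of the members in this fit, which has no term for the sample numbers. With 1418174_at its signal was 8.88, 9.07, 8.91 and 8.71 in SOD1G93A gastrocnemius and 8.59, 8.65, 8.86 and 8.30 in NTg gastrocnemius. In triceps it was 9.21, 9.38, 9.41 and 9.12 in SOD1G93A and 9.002, 8.37, 9.03 and 8.996 in NTg. The genotypes overlapped in gastrocnemius. In triceps the lowest SOD1G93A array was at 9.12 and the highest NTg array at 9.03, while the other Dbp probe set overlapped there. The share of all probe sets without such overlap was not counted, so nothing is read from it. limma's difference, SOD1G93A minus NTg, was 0.30 (SE 0.16) in gastrocnemius, 0.43 (SE 0.16) in triceps and 0.36 (SE 0.12) over both, a 1.29-fold higher signal. The adjusted p was 0.999, 0.994 and 0.997. In triceps the difference was 0.27 without NTg triceps 2, an array of low Ckm and the lowest of its group, and 0.23 without the 3 arrays of low Ckm. In gastrocnemius it was 0.20 without NTg gastrocnemius 4.

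The second Dbp probe set, 1438211_s_at, gave 8.99, 9.18, 9.10 and 8.84 in SOD1G93A gastrocnemius and 8.66, 8.77, 8.91 and 8.33 in NTg gastrocnemius. In triceps it gave 9.44, 9.12, 9.44 and 9.07 in SOD1G93A and 8.80, 9.47, 9.08 and 8.94 in NTg, where the highest array was NTg triceps 2, the lowest of the other probe set. Both muscles overlapped between the genotypes. The difference was 0.36 (SE 0.16) in gastrocnemius, 0.20 (SE 0.16) in triceps and 0.28 (SE 0.12) over both (limma's adjusted p 0.999, 0.994 and 0.997). In triceps it was 0.31 without the 3 arrays of low Ckm, 0.33 without NTg triceps 2 alone and 0.11 without NTg triceps 1 alone. The probe set 1418174_at gave a difference over both muscles of 0.48 within samples 1 and 2 and of 0.24 within samples 3 and 4, and 1438211_s_at gave 0.26 and 0.30. As deviations from the group means over the 16 arrays, the probe sets of Dbp were related with a Pearson r of 0.02, a description of arrays of which each mouse gave a pair.

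Nr1d1 was at 0.43 (SE 0.37) in gastrocnemius, 0.53 (SE 0.37) in triceps and 0.48 (SE 0.27, adjusted p 0.997) over both, SOD1G93A minus NTg. Single arrays moved it: it was 0.15 without NTg gastrocnemius 1 and 0.67 without NTg gastrocnemius 4 in gastrocnemius, and 0.28 without NTg triceps 2 and 0.75 without NTg triceps 4 in triceps. Its level averaged 7.72 ± 0.66 (SD, n = 4) in SOD1G93A gastrocnemius and 7.29 ± 0.71 in NTg gastrocnemius, and 7.76 ± 0.31 in SOD1G93A triceps against 7.24 ± 0.66 in NTg triceps. Most of this spread lay between the sample numbers: with the replicate set as a term of the fit the SE over both muscles was 0.13 and the adjusted p 0.712, smaller than that of Dbp in the same fit (0.919). Samples 1 and 2 alone gave a difference over both muscles of 0.65, and samples 3 and 4 alone gave 0.31. Without the 3 arrays of low Ckm it was -0.02 in triceps and 0.26 over both muscles, with NTg triceps left with samples 3 and 4 alone. Within samples 3 and 4 of both genotypes the triceps difference was 0.20.

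Tef was at 0.23 (SE 0.13) in gastrocnemius, with 9.90 ± 0.17 in SOD1G93A and 9.67 ± 0.14 in NTg (SD, n = 4 each), and at 0.06 (SE 0.13) in triceps. Nr1d2 was at 0.04 (95% interval -0.28 to 0.35) and 0.13 (-0.19 to 0.45), and Bhlhe40 at 0.07 (-0.52 to 0.66) and -0.11 (-0.70 to 0.48). Values below 0 were found for Noct, at -0.35 (SE 0.54) and -0.25 (SE 0.54), and for Per1, at -0.85 (SE 0.69) and -0.29 (SE 0.69). None passed, with limma's adjusted p between 0.994 and 0.999. The value of Per1 in gastrocnemius rested on SOD1G93A gastrocnemius 4 at 3.13 and was 0.11 without it. Without the 3 arrays of low Ckm the triceps values were -0.06 for Tef, 0.25 for Nr1d2, -0.43 for Bhlhe40, 0.43 for Noct and -0.04 for Per1, so those of Tef and Noct changed sign. NTg triceps then held samples 3 and 4 alone, so these values mix genotype with sample number. Within samples 3 and 4 of both genotypes they were -0.13 for Tef, 0.22 for Nr1d2, -0.37 for Bhlhe40, -0.19 for Noct and -0.415 for Per1.

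**Figure D4:**
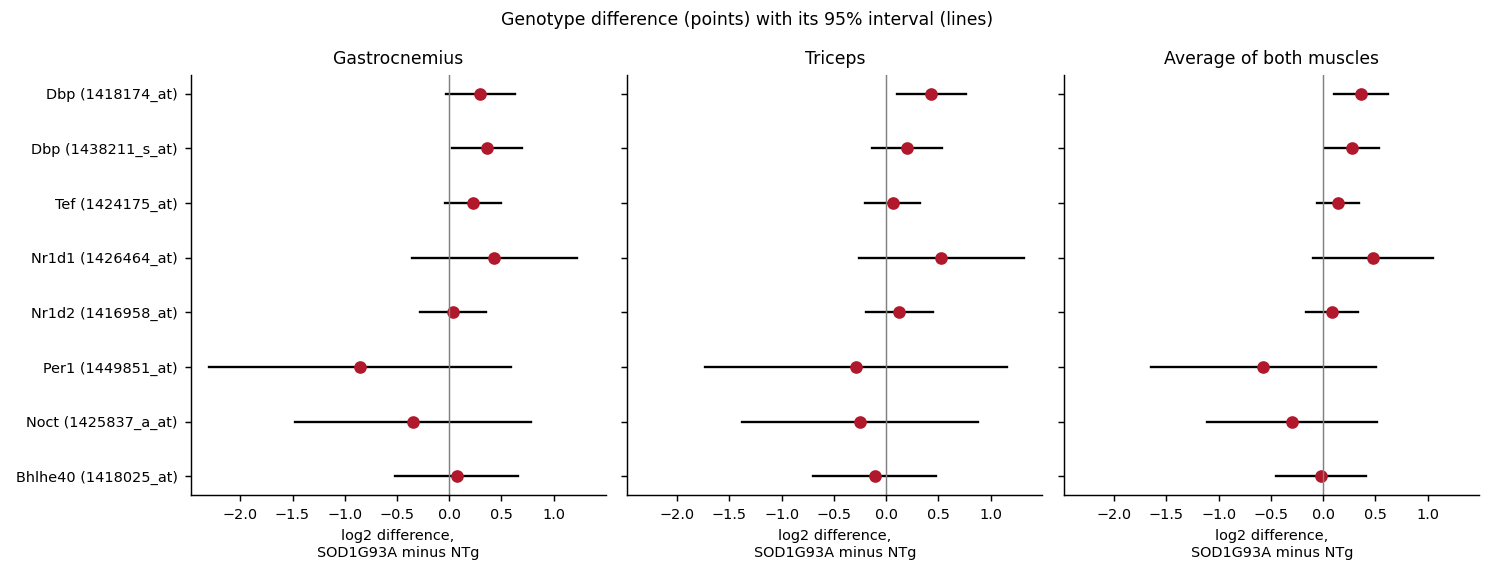
Genotype difference in log2 signal, SOD1G93A minus NTg (x axes), of each probe set (rows) in gastrocnemius, triceps and the average of both, with its 95% interval from limma. Both Dbp probe sets lie at 0.20 to 0.43 in every panel, and the intervals of Per1 and Noct are the widest.

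No member passed the test of whether the genotype difference differs between the muscles. That value lay between -0.56 (SE 0.97, Per1) and 0.18 (SE 0.39, Bhlhe40), gastrocnemius minus triceps, and limma's adjusted p was 0.999 for each of the 8, with 0% of all probe sets called. Of the further clock genes 0 of 15 probe sets were called for the genotype in either muscle or over both. Their medians were 0.13 in gastrocnemius, 0.13 in triceps and 0.10 over both. In gastrocnemius the smallest p were those of Nono (-0.35), Rora (0.17) and Hdac3 (0.23), and in triceps those of Rora (0.69), Fbxw11 (0.25) and Usp2 (-0.33). For the difference between the numbers set between the genotypes, again no member passed (0% of all called), with Per1 furthest from 0 at 1.55 (SE 0.68, adjusted p 0.981). That value was 0.81 without SOD1G93A gastrocnemius 4, the array at 3.13.

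Between the muscles no member passed, where limma called 3.69% of all probe sets. 3 of the 8 had an unadjusted p under 0.05, beside 22.3% of all. Nr1d2 and Dbp came closest, and both were lower in gastrocnemius than in triceps. Nr1d2 averaged 9.42 ± 0.09 in SOD1G93A gastrocnemius and 9.38 ± 0.06 in NTg gastrocnemius, against 9.81 ± 0.26 in SOD1G93A triceps and 9.68 ± 0.33 in NTg triceps (SD, n = 4 each). It was lower in gastrocnemius in 7 of 8 mice and level, within 0.01, in the NTg mouse numbered 4. The difference, gastrocnemius minus triceps, was -0.34 (SE 0.11, adjusted p 0.0867), with -0.52 for samples 1 and 2 and -0.16 for samples 3 and 4. It was -0.16 without the 3 arrays of low Ckm (adjusted p 0.365). Without NTg triceps 4 it was -0.40 and passed (adjusted p 0.0299).

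Dbp was lower in gastrocnemius in 7 of 8 mice with each probe set, by -0.32 (SE 0.11) with both, at an adjusted p of 0.115. The mouse that went the other way was the NTg mouse numbered 2 with 1418174_at and the SOD1G93A mouse numbered 2 with 1438211_s_at. Without the 3 arrays of low Ckm the values were -0.38 and -0.31 (adjusted p 0.0681 and 0.187). Without NTg triceps 2 alone 1418174_at was at -0.40 and passed (adjusted p 0.0222), and 1438211_s_at was at -0.26 (0.182). With the mouse as a block the adjusted p was 0.0769 and 0.06 for Dbp and 0.0596 for Nr1d2.

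**Figure D5:**
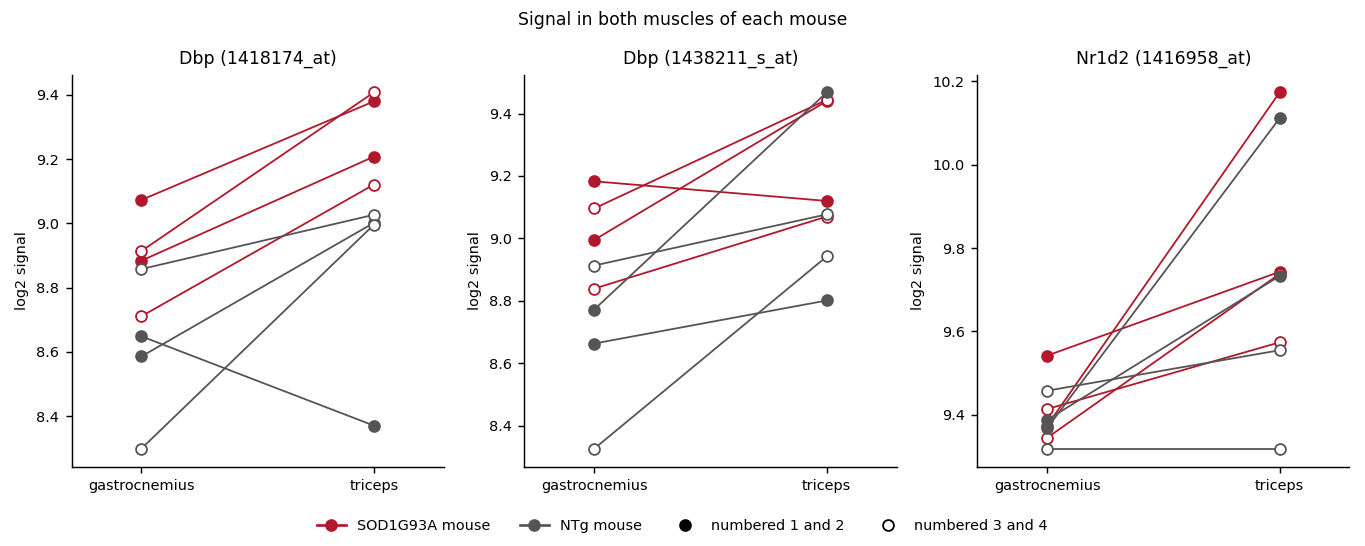
log2 signal (y axes) in gastrocnemius and triceps (x axes) of each mouse for the Dbp probe sets and Nr1d2, with a line per mouse, red for SOD1G93A and grey for NTg, filled for the mice numbered 1 and 2. Most lines rise to the right, and the 2 highest values of Nr1d2, 10.17 and 10.11, are from triceps of mice numbered 1 or 2.

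The difference between the muscles did not pass for the remaining members either. Tef was at 0.03 (95% interval -0.16 to 0.21), Nr1d1 at 0.01 (-0.55 to 0.56), Bhlhe40 at -0.07 (-0.48 to 0.35), Noct at -0.16 (-0.96 to 0.64) and Per1 at -0.69 (-1.72 to 0.33), gastrocnemius minus triceps. Per1 was at -0.21 without SOD1G93A gastrocnemius 4. Noct was at -0.59 for samples 1 and 2 and at 0.28 for samples 3 and 4, and at 0.46 without the 3 arrays of low Ckm. Bhlhe40 was at -0.28 and Nr1d1 at -0.28 without those 3 arrays. SOD1G93A triceps 1 was then the only triceps array numbered 1 or 2, so these values mix muscle with sample number. Of the further clock genes 1 of 15 probe sets was called, Csnk1d lower in gastrocnemius (-0.71, SE 0.18, adjusted p 0.034) by the probe set 1437690_x_at, while 1456727_a_at of the same gene was at 0.51 (SE 0.26, adjusted p 0.24). The muscles also differed in markers of other cells: 11 of 12 slow fibre probe sets (median 4.41), 4 of 4 Schwann cell probe sets (median 2.01) and 3 of 13 tendon and fibroblast probe sets (median 0.45) were called higher in gastrocnemius, and 0 of 10 fast fibre probe sets were (median 0.50). Their part in the values of Dbp and Nr1d2 was not tested.

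The order of the 4 group means differed between members. Triceps of SOD1G93A mice had the highest mean of Dbp (9.28 and 9.27), Nr1d1 (7.76) and Nr1d2 (9.81), and NTg triceps that of Per1 (7.28), Noct (7.32) and Bhlhe40 (7.98). For Tef it was SOD1G93A gastrocnemius (9.90). Means next to each other in these orders lay closer than the larger SD of the pair, except for Dbp. With 1418174_at SOD1G93A triceps (9.28 ± 0.14) lay above SOD1G93A gastrocnemius (8.90 ± 0.15), and with 1438211_s_at SOD1G93A gastrocnemius (9.03 ± 0.15) lay above NTg gastrocnemius (8.67 ± 0.25), each with SD and n = 4. The groups furthest apart for Noct (7.32 ± 1.13 in NTg triceps and 6.86 ± 0.72 in SOD1G93A gastrocnemius, SD, n = 4) differed by less than the SD of either.

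As a description of likeness, each probe set was set against the mean profile of the 7 member genes, as deviations from the group means over the 16 arrays, which share a mouse in pairs and differ by sample number. Per1 weighed most in that mean (r = 0.86) and Nr1d1 ran against it (r = -0.44), so the members did not form a single profile. The genes outside the members with the highest Pearson r were H2-K1 (0.89), Tob2 (0.82), Errfi1 (0.82), Ifrd1 (0.81), Dhrs7b (0.81) and Gpr180 (0.81), and those with the lowest were Mrps2 (-0.86), Fh1 (-0.85) and Ndufs8 (-0.81). Against single members, a choice made after the values were seen, the nearest gene was Cebpb for Noct (0.96) and Pfkfb3 for Nr1d1 (0.96).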

How the data were processed

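The deposited table gives 1 log2 signal per probe set and array. It was made by the authors from biotin-labelled cRNA of 4 ug total RNA, per the labels' protocols, and the submitters' processing notes name MAS5 without a version. How the values were scaled and the 7729 probe sets selected is not given in the sources used here. Base 2 was read from the values (-0.77 to 14.81), which were used as deposited. Precision is limited by the number of arrays. Of the probe sets 7053 had a single symbol in the platform annotation, 330 had several and 346 had no symbol, and names were taken from single symbols alone. 6 members had a promoter in the RefSeq table.

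limma 3.58.1 (R 4.3.3; lmFit, eBayes with an intensity trend) fitted a mean per group on 4637 probe sets, with Benjamini-Hochberg adjustment over all of them. The mouse was a random block (duplicateCorrelation) for the genotype over both muscles and for the sample numbers, which entered as 1 further term. The series design gives both muscles for 4 mice of each genotype, so the number was taken as the mouse. Both muscles of a numbered mouse correlated in their deviations at 0.14 to 0.39. Same-numbered arrays of SOD1G93A and NTg, which are different mice, correlated at 0.00 to 0.37, so these correlations cannot show that the number is the mouse. Replicates are biological per the titles. For the genotype a p is set against the spread between arrays of the same group, which are different mice. That spread also holds the differences between the sample numbers. For a single muscle it was pooled over the arrays of both muscles, without a mouse block. The muscle fit and that of the genotype effect between muscles took the arrays as unpaired. For the sample numbers the fitted correlation within a mouse was 0.027. What separates the numbers is not given, so their p measures no spread between repeats of it. Named are all members, the 3 further clock genes of smallest p (in part), genes nearest in profile and the 2 of smallest p in other lists (Cited2, Car3, Csf1r, Fmod and further clock genes beyond these were added after their values were seen). The members, lists and tests were chosen with earlier results of these data known. The fits were tested on simulated data. Alternatives are given in the closing section.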

Additional observations from a re-analysis of the deposited data

Results flagged for a closer look

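2 of 32 groups of 4 arrays held an array far from the other 3 by Dixon's criterion, which flags about 1 in 20 groups by chance. Dbp (1418174_at) was at 8.371 in NTg triceps replicate 2, below 8.996 to 9.03 on the other 3 arrays. This is 1 of the 3 triceps arrays of low Ckm, and the other Dbp probe set was at 9.47 on it, the highest of its group. Per1 (1449851_at) was at 6.319 in NTg triceps replicate 4, below 7.46 to 7.68 on the others.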

How the results depend on the processing

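The calls of Nr1d1 and Noct between the numbers kept their direction and stayed past the threshold without each single array, after quantile normalization, with no filter, without the intensity trend, without the mouse block, without the 3 arrays of low Ckm and with the gastrocnemius or the triceps arrays alone. Noct missed it with fast fibre signal as a covariate. With the filter at the 60th percentile Nr1d1, Per1 and Noct were not tested. Between the numbers limma called 417 probe sets, and 249 after quantile normalization, 173 without the 3 arrays of low Ckm, 82 in gastrocnemius alone, 26 with the fast fibre covariate (these last 2 and triceps alone were chosen after seeing the data) and 261 to 484 without single arrays, lowest without NTg gastrocnemius 2. Between muscles it called 171, and 103 without those 3 arrays, 318 with the mouse as a replicate block and 99 to 272 without single arrays, lowest without SOD1G93A triceps 2 and highest without NTg triceps 3. For the numbers by muscle it called 7, and 11 after quantile normalization, 3 with no filter, 1 without the trend, 0 without those 3 arrays (190 at an unadjusted p under 0.05), 3 without the mouse block and 0 to 339 without single arrays, highest without SOD1G93A triceps 1, and for the numbers by genotype 0, and 0 to 1 without single arrays. For the genotype it called 0 under every alternative run, the replicate block included, with unadjusted counts of 44 to 316 at p under 0.05. The pairs of same-numbered SOD1G93A and NTg arrays correlated at 0.00 to 0.37, and 3 of the 8 were not over 0.1, the level asked of every pair, so the block was kept as an alternative. Over both muscles the replicate block gave Nr1d1 0.48 (adjusted p 0.581) and Dbp 0.36 (0.601) and changed no call of a member.

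Sign changes concerned uncalled values, and their cause was not tested. Leaving out the 3 arrays of low Ckm unbalances the sample numbers between the triceps groups and between the muscles. Genotype values that include triceps, and muscle values, then mix genotype or muscle with sample number. Without the 3 arrays of low Ckm, for the genotype in triceps Tef was at -0.062, Nr1d1 at -0.015 and Noct at 0.43; for the genotype effect between muscles Dbp 1418174_at at 0.063 and Nr1d1 at 0.448; between muscles Tef at -0.085, Nr1d1 at -0.275 and Noct at 0.46; between the numbers Dbp 1418174_at at 0.068; for the numbers by genotype Dbp 1438211_s_at at 0.054 and Nr1d2 at 0.086; for the numbers by muscle Dbp 1438211_s_at at -0.091 and Tef at -0.322. Tef was at -0.009 between muscles after quantile normalization. Between the numbers Dbp 1418174_at was at 0.103 in gastrocnemius alone and 0.065 with the fast fibre covariate, and Nr1d2 at -0.159 with it. For the genotype in gastrocnemius the range without single arrays crossed 0 for Nr1d2 (-0.006 to 0.060), Per1 (-1.45 to 0.11), Bhlhe40 (-0.20 to 0.23). For the genotype in triceps the range without single arrays crossed 0 for Tef (-0.005 to 0.13), Noct (-0.64 to 0.13), Bhlhe40 (-0.31 to 0.021). For the genotype over both muscles the range without single arrays crossed 0 for Bhlhe40 (-0.13 to 0.061). For the genotype effect in gastrocnemius minus triceps the range without single arrays crossed 0 for Dbp 1418174_at (-0.23 to 0.027), Nr1d1 (-0.37 to 0.15), Nr1d2 (-0.24 to 0.030), Per1 (-1.16 to 0.40), Noct (-0.47 to 0.30), Bhlhe40 (-0.086 to 0.38). Between muscles the range without single arrays crossed 0 for Tef (-0.013 to 0.060), Nr1d1 (-0.12 to 0.14), Noct (-0.36 to 0.030), Bhlhe40 (-0.17 to 0.063). Between the numbers the range without single arrays crossed 0 for Dbp 1418174_at (-0.079 to 0.063). For the numbers by genotype the range without single arrays crossed 0 for Dbp 1438211_s_at (-0.17 to 0.095), Nr1d2 (-0.16 to 0.077), Noct (-0.16 to 0.28). For the numbers by muscle the range without single arrays crossed 0 for Dbp 1438211_s_at (-0.085 to 0.18), Tef (-0.035 to 0.13), Per1 (-0.059 to 1.11), Bhlhe40 (-0.29 to 0.044).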
